A study of Mus musculus with 10 samples.

Results

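The genes described here form the oxygen-sensing pathway of the hypoxia-inducible factor (HIF), and they were chosen by name. The set comprised the subunit genes Hif1a, Epas1 and Arnt, the prolyl hydroxylase genes Egln1, Egln2 and Egln3, the ubiquitin ligase gene Vhl, and the HIF target genes Vegfa, Adm and Bnip3. These were 10 of the 54532 genes counted in each library, and all 10 had enough reads to be tested. HIF is a pair of an alpha subunit and the beta subunit ARNT. When oxygen is plentiful, prolyl hydroxylases mark the alpha subunit, which VHL then binds and sends to the proteasome, and when oxygen is scarce the alpha subunit escapes and the pair switches on genes of glycolysis, vessel growth and mitophagy. The hydroxylases use 2-oxoglutarate and are inhibited by succinate, and in the kidney HIF controls erythropoietin.

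The kidneys came from male wild-type (WT) C57BL/6 mice whose left ureter was ligated at 8 weeks of age (unilateral ureteral obstruction, UUO) and that were sacrificed 14 days later. One group received dimethyl malonate (DMM), a malonate ester that inhibits succinate dehydrogenase, by intraperitoneal injection of 40 mg/kg every other day, and the other received PBS and is called control in the labels. Each group had 5 libraries of whole-kidney RNA, and kidneys without obstruction were not analysed here. The comparison of DMM with PBS asks how the drug altered transcripts of the obstructed kidney. Total counts ranged from 16457495 to 18078777 per PBS library and from 15722527 to 19475833 per DMM library.

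Some libraries stood apart from their groups. Over 10 proximal tubule markers, the mean log2 level relative to the PBS mean was 1.60 in PBS replicate 3 and -0.46 in DMM replicate 1, against 0.73 to 1.89 in DMM replicates 2 to 5. The 10 interferon response genes stood at -0.08 in DMM replicate 1 and between -3.45 and -2.94 in the other DMM libraries. PBS replicate 3 and DMM replicate 1 thus lay on the side of the opposite group for the tubule markers, and DMM replicate 1 also lay with the PBS libraries for the interferon genes, whereas PBS replicate 3, at -0.30, lay with its own group for these. These libraries also have a weight of 0 in the group means that the authors deposited, although the authors state 5 replicates per group. No reason is given in the sources used here, and an exchange of these labels was not tested, a doubt that bears on the values over 10 libraries. In DMM replicate 4, genes of at least 6291 bp exceeded genes of at most 2403 bp by a log2 level of 1.06 relative to the other libraries, while the same difference lay between -0.08 and 0.02 elsewhere. Results are therefore given over all 10 libraries, over the 8 libraries without PBS replicate 3 and DMM replicate 1, and, where it alters a value, over the 7 libraries that also leave out DMM replicate 4.

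Over all 10 libraries, edgeR's quasi-likelihood test called 0 of the 10 pathway members. A call required a fold change of more than 1.5 together with an adjusted p (Benjamini-Hochberg, over all tested genes) below 0.05, and counts of calls are those of edgeR unless DESeq2 is named. The background was 0% of 16505 tested genes, none of which had an adjusted p below 0.378 (edgeR). At an unadjusted p under 0.05 the test found 1 member, Bnip3, against 10.9% of all tested genes. DESeq2 called 0 members and 50 genes in all. The PBS and DMM values did not overlap in 0 of 10 members, against 1.95% of all tested genes. Over the 8 libraries 1 of 10 members was called higher in DMM, again Bnip3, and 0 were called lower, with a background of 2.73% called higher and 3.56% called lower. With the adjusted p alone the count was also 1 of 10, against 7.17% of all genes. The groups of the 8 libraries did not overlap for 2 members, Egln1 and Bnip3, where the background was 20.1%. Over the 7 libraries 1 member was called higher and 0 lower, with 6.71% and 7.61% of all genes. The median log2 fold change (DMM over PBS) of the members was 0.10 over 10 libraries and 0.14 over 8, and that of all tested genes was 0.02 in both.

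Levels per gene length (RPKM, the normalised count divided by the length in kilobases) placed Epas1 first, with a median over the 10 libraries of 54.3 and a range of 50.2 to 63.4. Hif1a (median 27.8), Egln2 (27.0) and Vegfa (26.9) followed with ranges that overlapped one another, and Egln1 came next at 22.4. Epas1 exceeded Hif1a per length in 9 of 10 libraries, DMM replicate 4 being the exception. Bnip3 (16.2), Vhl (12.8), Arnt (9.94) and Egln3 (9.89) formed the lower part of the order, each with a range that reached into that of its neighbour. Adm was last, with a median of 4.51 RPKM, and it was the single member whose range did not reach that of the gene ranked above it.

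Hif1a encodes the widely expressed alpha subunit HIF-1α (ENSMUSG00000021109, chr12:73901375-73947530, plus strand, mm10). Its normalised count was 145, 144, 168, 199.7 and 148 CPM (counts scaled to a common library size, with TMM) in PBS replicates 1 to 5 and 160.3, 147, 174, 447 and 172 CPM in DMM replicates 1 to 5. A single library, DMM replicate 4, was far above the rest, and the other DMM values lay within the PBS range. On the log2 scale the fold change was 0.45 (SE 0.29, adjusted p = 0.559, edgeR) over 10 libraries and 0.56 (SE 0.34, adjusted p = 0.391, edgeR) over 8. Without DMM replicate 4 it was 0.02 over the other 9 libraries and 0.05 over 7. The higher DMM mean of this transcript thus came from the library in which long genes were high, and the part of that length shift in the Hif1a value was not tested. The antisense gene Gm15283, which overlaps an exon of Hif1a, had at most 38 counts per library, against at least 2339 for Hif1a.

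Epas1 encodes HIF-2α, the alpha subunit found in renal endothelial and interstitial cells (ENSMUSG00000024140, chr17:86753907-86833410, plus strand). It was at 266, 271, 285, 267 and 308 CPM in the PBS libraries, in order of replicate number, and at 305, 277, 337, 319 and 291 CPM in the DMM libraries. The groups overlapped, with DMM replicate 3 highest and PBS replicate 1 lowest. Its log2 fold change was 0.13 (SE 0.10, adjusted p = 0.595, edgeR) over 10 libraries, 0.14 over 8 and 0.12 over 7, so that DMM replicate 4 moved it little. The summed level of 8 endothelial markers, of which Plvap was the most abundant, lay between 771 and 1089 CPM, and 0 of the 8 were called over the 8 libraries. That of 7 fibroblast and pericyte markers, with Col3a1 the most abundant, lay between 2871 and 11150 CPM. Of these 7, 0 were called over 10 libraries, 1 was called lower over 8 and 3 over 7, and DESeq2 called 3 lower over 8. The part of these cells in the Epas1 values was not tested. In whole-kidney RNA, fewer cells of a type and less RNA per cell cannot be told apart.

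Arnt encodes the beta subunit HIF-1β, the partner of both alpha subunits (ENSMUSG00000015522, chr3:95434388-95497240, plus strand). Its level was 80.3, 71.7, 80.1, 79.0 and 76.6 CPM in PBS replicates 1 to 5. In DMM replicates 1 to 5 it was 83.3, 72.6, 73.6, 113 and 80.4 CPM. As for Hif1a, DMM replicate 4 stood alone above an otherwise narrow range shared by both groups. Its log2 fold change of 0.13 (SE 0.13, adjusted p = 0.695, edgeR) over 10 libraries was -0.001 without DMM replicate 4, and that of 0.14 over 8 libraries became -0.03.

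**Figure D1:**
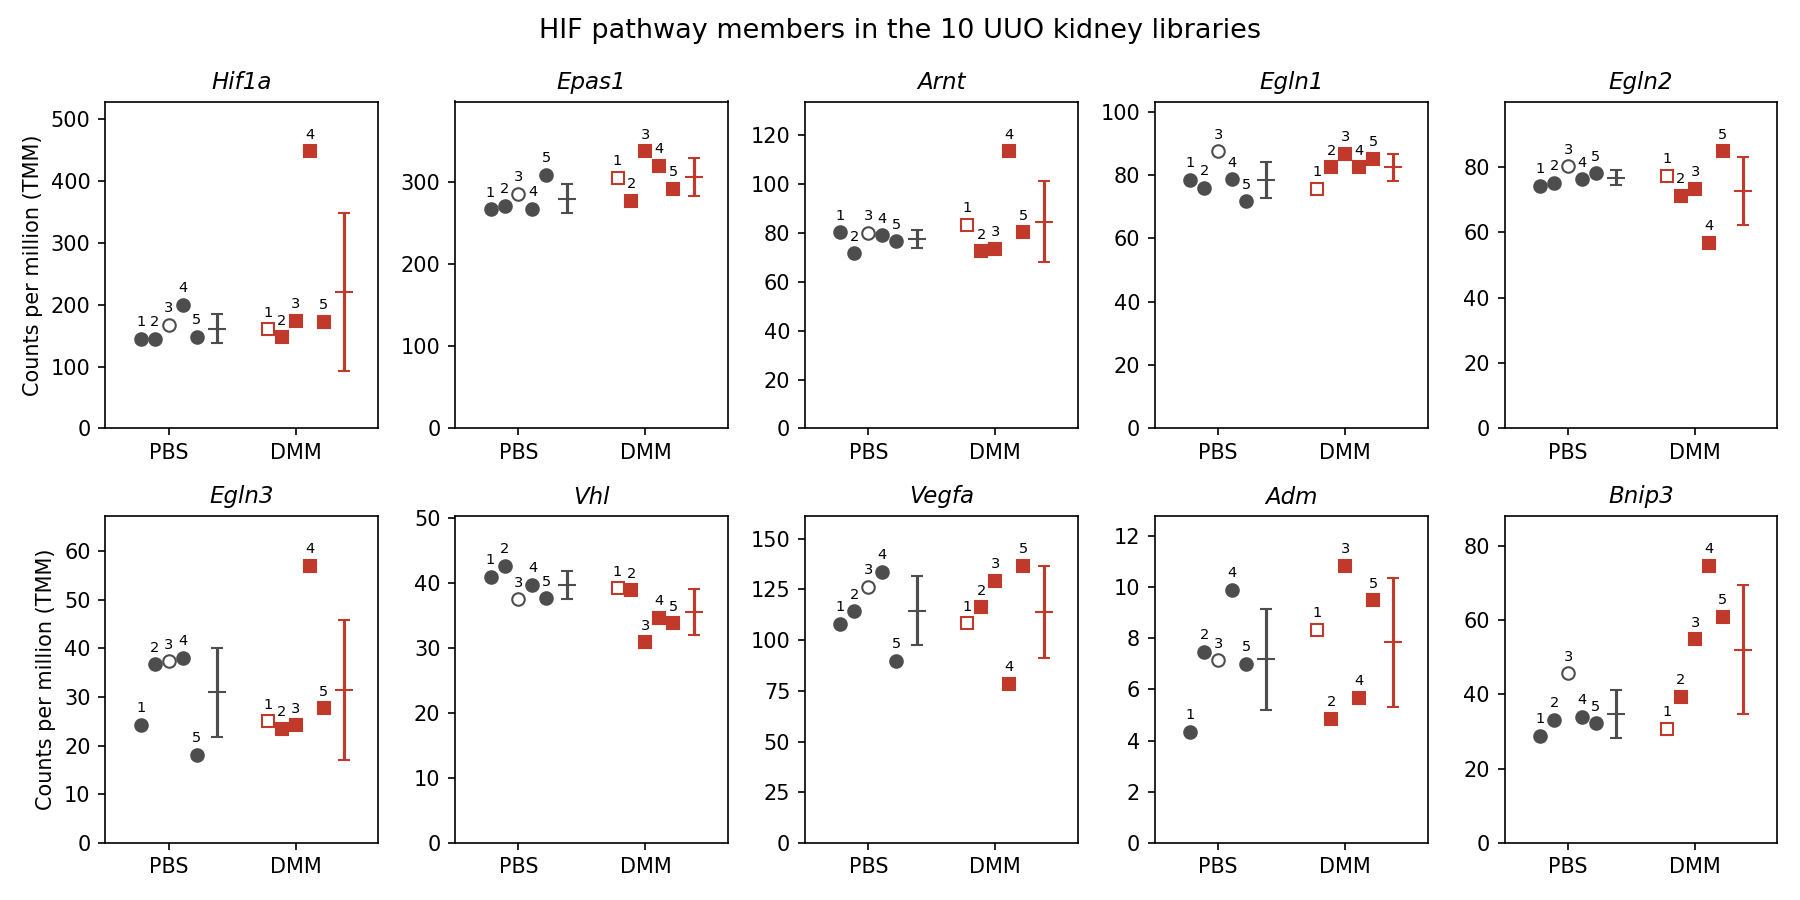
Normalised counts (CPM, TMM, vertical axes from 0) of the 10 pathway members in each PBS (grey circles) and DMM (red squares) library, numbered by replicate, with the mean and SD of 5 libraries beside each group. Open symbols are PBS replicate 3 and DMM replicate 1; DMM replicate 4 is far above the others for Hif1a (447 CPM), Arnt (113 CPM) and Egln3 (57.0 CPM).

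Egln1 encodes PHD2, the main oxygen-dependent hydroxylase of HIF-1α (ENSMUSG00000031987, chr8:124908587-124949324, minus strand). Its level was 78.4, 76.0, 87.4, 78.6 and 71.6 CPM in the PBS libraries and 75.6, 82.4, 86.7, 82.5 and 85.2 CPM in the DMM libraries. PBS replicate 3 was the highest of all and DMM replicate 1 the lowest of its group, while the remaining DMM values all lay above the remaining PBS values. Over 10 libraries the log2 fold change was 0.07 (SE 0.09, adjusted p = 0.744, edgeR). Over 8 it was 0.14 (SE 0.09, adjusted p = 0.405, edgeR) and over 7 it was 0.15 (SE 0.06, adjusted p = 0.0748, edgeR). The separation over 8 libraries therefore came without a call, at a fold change of 1.105.

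Egln2, which encodes PHD1, was at 74.2, 75.1, 80.2, 76.2 and 78.0 CPM in PBS kidneys (ENSMUSG00000058709, chr7:27158658-27166802, minus strand). In DMM kidneys it was at 77.3, 71.1, 73.3, 56.7 and 84.7 CPM. The DMM values enclosed the whole PBS range, with DMM replicate 4 lowest and DMM replicate 5 highest. Its log2 fold change was -0.08 (SE 0.11, adjusted p = 0.780, edgeR) over 10 libraries and -0.09 over 8, and without DMM replicate 4 these became -0.002 and 0.01. An exon of Egln2 overlaps Cyp2t4 on the opposite strand, which had at most 12 counts per library against at least 939 for Egln2.

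Egln3 encodes PHD3, a hydroxylase whose own gene is a HIF target (ENSMUSG00000035105, chr12:54178981-54203860, minus strand). Its level was 24.3, 36.7, 37.4, 38.0 and 18.2 CPM in the PBS libraries and 25, 23.4, 24.2, 57.0 and 27.7 CPM in the DMM libraries. PBS libraries fell at both a high and a low level, and the DMM libraries other than replicate 4 lay close together near the lower PBS values. For this gene a log2 fold change of 0.02 (SE 0.29, adjusted p = 0.978, edgeR) over 10 libraries turned to -0.30 without DMM replicate 4 (adjusted p = 0.442, edgeR). Over 8 libraries it was 0.17, and over 7 it was -0.22.

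Vhl encodes the substrate receptor that binds hydroxylated HIF alpha subunits (ENSMUSG00000033933, chr6:113623959-113631633, plus strand). Its level was 41.0, 42.7, 37.6, 39.7 and 37.6 CPM in PBS replicates 1 to 5 and 39.2, 38.9, 30.9, 34.7 and 33.8 CPM in DMM replicates 1 to 5. DMM replicates 3, 4 and 5 lay below every PBS library, and DMM replicates 1 and 2 lay within the PBS range. Its log2 fold change was -0.16 (SE 0.10, adjusted p = 0.536, edgeR) over 10 libraries and -0.22 (SE 0.11, adjusted p = 0.292, edgeR) over 8. DMM replicate 4 did not move it, with -0.22 (SE 0.09, adjusted p = 0.0969, edgeR) over 7 libraries. The pseudogene Vhl-ps1 had at most 2 counts per library, against at least 545 for Vhl.

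Bnip3 encodes a mitochondrial outer membrane receptor of mitophagy and is a classic HIF target (ENSMUSG00000078566, chr7:138890836-138909519, minus strand). Its level was 28.8, 33.1, 45.7, 33.9 and 32.2 CPM in PBS replicates 1 to 5 (mean 34.7 ± 6.40, SD, n = 5) and 30.7, 39.3, 54.9, 74.6 and 60.8 CPM in DMM replicates 1 to 5 (mean 52.1 ± 17.4, SD, n = 5). DMM replicates 3, 4 and 5 were above every PBS library, DMM replicate 2 was above every PBS library but replicate 3, and DMM replicate 1 lay among the PBS libraries. The log2 fold change over 10 libraries was 0.58 (SE 0.23, adjusted p = 0.408, edgeR), which was not called. Over the 8 libraries it was 0.84 (SE 0.18, adjusted p = 0.0283, edgeR), a rise of 1.79-fold that was called. The libraries left out for this fit were the highest PBS and the lowest DMM library for Bnip3 itself, so that their removal widened the difference and favoured a call. With PBS replicate 3 alone left out of the 10 the adjusted p was 0.265, and with DMM replicate 1 alone left out it was 0.0752 (edgeR), neither of them a call. Over 7 libraries it was 0.69 (SE 0.14, adjusted p = 0.00568, edgeR), so that the call over 8 libraries did not need the library of high long genes. Without that library alone, over the other 9, it was 0.42 (adjusted p = 0.315, edgeR), the lowest log2 fold change when each of the 10 was left out in turn. Leaving out any of PBS replicates 1, 2, 4 and 5 or DMM replicates 3 and 5 from the 8 ended it, with adjusted p values of 0.0854, 0.0791, 0.0813, 0.0939, 0.0707 and 0.0821 in that order (edgeR). Over the 8 fits that each left out 1 of these libraries, the log2 fold change lay between 0.69 (without DMM replicate 4) and 0.98 (without DMM replicate 2, adjusted p = 0.00909, edgeR).

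Other measures also differed between the libraries in which Bnip3 was high and low. The summed level of the 10 proximal tubule markers, of which Lrp2 was the most abundant and none was at 0, was 1788, 1784, 4573, 702 and 1303 CPM in PBS replicates 1 to 5. It was 1232.5, 3511, 4421, 4202 and 5168 CPM in DMM replicates 1 to 5, and 4 of the 10 markers were called higher over the 8 libraries. PBS replicate 3 was thus the highest PBS library and DMM replicate 1 the lowest DMM library for both Bnip3 and the tubule markers. Leaving out these libraries therefore favoured the calls of the tubule markers too. Over all 10 libraries 0 of the 10 markers were called, and their median log2 fold change was 0.94, against 1.70 over 8. Of the markers of the loop of Henle and distal tubule 4 of 6 tested were called higher over the 8 libraries, as was 1 of 5 of the collecting duct. Over all 10 libraries 0 of either list were called. Without DMM replicate 4, over 7 libraries, 9 of 10 proximal tubule markers, 6 of 6 of the loop of Henle and distal tubule and 4 of 5 of the collecting duct were called higher. Over the 8 libraries DESeq2 called 8, 4 and 2 markers of these lists higher, in that order, and 749 of all genes. The share of counts on mitochondrial genes was 2.14, 2.30, 3.66, 1.97 and 2% in the PBS libraries and 2.30, 3.79, 4.03, 5.62 and 4.39% in the DMM libraries. This share had DMM replicate 4 highest, as Bnip3 did. The summed level of 5 red blood cell markers, with Hbb-bs the most abundant, was 136, 228, 230, 157 and 152 CPM in the PBS libraries and 288, 216, 593, 788 and 276 CPM in the DMM libraries, again highest in DMM replicate 4. In edgeR's test 0 of these 5 were called over 10 or over 8 libraries, although 5 of 5 were higher at an unadjusted p under 0.05 in both, and 5 of 5 were called higher over 7. DESeq2 called 1 of the 5 higher over 10 libraries and 5 over 8, where it called 14 and 749 of all genes higher. The part of tubule content, of mitochondrial RNA and of blood content in the Bnip3 difference was not tested.

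Vegfa encodes the vascular growth factor VEGF-A (ENSMUSG00000023951, chr17:46016993-46032369, minus strand). It was at 108, 114, 126, 134 and 89.9 CPM in the PBS libraries and at 108, 116, 129, 78.5 and 137 CPM in the DMM libraries. The DMM values enclosed the PBS range, with DMM replicate 4 lowest and DMM replicate 5 highest. Its log2 fold change was -0.01 (SE 0.16, adjusted p = 0.988, edgeR) over 10 libraries and 0.05 over 8, and without DMM replicate 4 it was 0.10 and 0.19. The summed level of 6 podocyte markers, cells that make VEGF-A, was between 637.7 and 999.5 CPM, and 0 of the 6 were called over the 8 libraries, with Podxl the most abundant.

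Adm encodes the vasodilator peptide adrenomedullin and had the lowest level of the set, with 77 to 191 counts per library (ENSMUSG00000030790, chr7:110627661-110629820, plus strand). Its level was 4.34, 7.47, 7.14, 9.90 and 7 CPM in PBS kidneys and 8.33, 4.85, 10.8, 5.68 and 9.48 CPM in DMM kidneys. Values in both groups were spread over about the same interval. Its log2 fold change was 0.13 (SE 0.27, adjusted p = 0.854, edgeR) over 10 libraries and 0.10 (SE 0.33) over 8, and without DMM replicate 4 these became 0.225 (SE 0.27) and 0.227 (SE 0.32), differences within the spread between replicates.

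**Figure D2:**
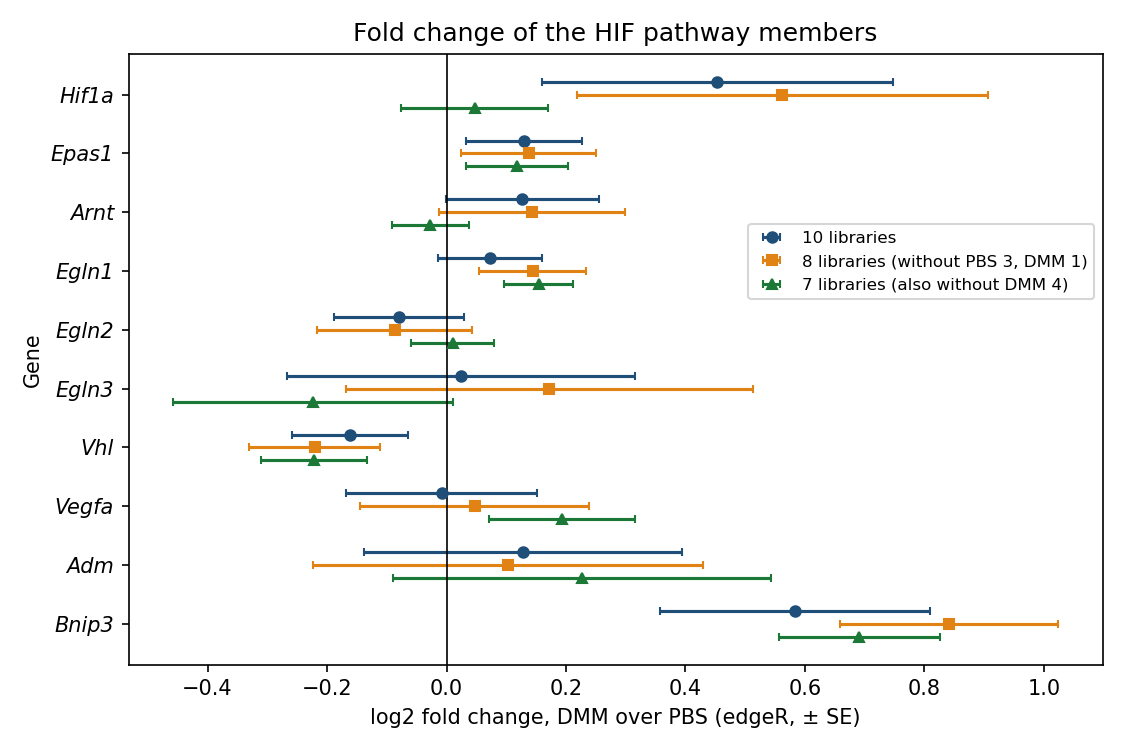
Log2 fold change (horizontal axis, DMM over PBS, edgeR) of each pathway member with its standard error, over 10 libraries (blue circles), 8 libraries (orange squares) and 7 libraries (green triangles). Bnip3 has the largest fold change over 8 libraries (0.84) and 7 libraries (0.69), whereas that of Hif1a is 0.56 over 8 libraries and 0.05 over 7.

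The pattern of each member over the 10 libraries was set beside that of all other tested genes by Pearson's r of log2 CPM, as a description over libraries that share depth and composition differences. The genes most like Bnip3 were Cd164 (r = 0.983) and Gys1, the muscle-type glycogen synthase gene (r = 0.980), and without DMM replicate 4 these values were 0.972 and 0.968. Those most like Vhl were Lrrn2 (r = 0.997) and Gosr2 (r = 0.981). For Egln1 they were Kcng1 (r = 0.960) and Gm49338 (r = 0.941), and for Epas1 they were Klf11 (r = 0.927) and Slc6a20a (r = 0.912). Each gene named was picked from all 16505 tested genes, so a high r is partly a product of the choice. Mgarp (r = 0.931) and Usp50 (r = 0.913) were most like Egln3, Rab7-ps1 (r = 0.985) and Kazald1 (r = 0.978) most like Egln2, and Mief2 (r = 0.949) and Spata33 (r = 0.947) most like Vegfa. Without DMM replicate 4 these values were 0.905, 0.827, 0.930, 0.894, 0.896 and 0.890 in that order. Adm was most like Aldh3a1 (r = 0.912) and Grrp1 (r = 0.901). The likeness of Hif1a to Gen1 (r = 0.986) and Acsl4 (r = 0.984) and of Arnt to Mapk8 (r = 0.977) and Dleu2 (r = 0.973) leaned on DMM replicate 4, and without it r was between 0.813 and 0.843.

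The wider pathway was followed in 6 lists with 85 further genes, of which 84 were tested. Epo, the erythropoietin gene, had too few reads for a test, at most 5 counts per library. Over 10 libraries edgeR called 0 of the 84, and at an unadjusted p under 0.05 there were 7 higher and 5 lower, against 10.9% of all tested genes in either direction. DESeq2 called 0 of the 84 there, and 50 genes in all. Over 8 libraries edgeR called 0 higher and 2 lower, which were Pfkfb4 and Cxcr4, against 2.73% and 3.56% of all tested genes, and the count was 0 in 6 of the 8 fits that each left out 1 more library. DESeq2 called 4 of the 84 over the 8 libraries, the same Pfkfb4 and Cxcr4 lower and Rora and Tfrc higher. Among all genes DESeq2 called 749 higher and 911 lower there. Over 7 libraries 3 were called higher (Tfrc, Ndrg1 and Car12) and 6 lower, against 6.71% and 7.61% of all tested genes, and the 3 are named here after their values were seen. The median log2 fold change of the 84 genes was 0.03 over 10 libraries and 0.06 over 8, near the 0.02 of all tested genes. Genes on either side of 0 numbered 43 higher and 41 lower over 8 libraries, against 8672 and 7878 of all tested genes.

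Among 20 target genes of glucose and lactate metabolism, 0 were called higher and 1 lower over the 8 libraries (2.73% and 3.56% of all tested genes), with a median log2 fold change of 0.22. The called gene was Pfkfb4, an enzyme that sets the level of fructose 2,6-bisphosphate. Its level was 27.1, 26.6, 24.3, 27.5 and 31.9 CPM in PBS replicates 1 to 5 and 24.3, 19.0, 17.7, 12.6 and 19.9 CPM in DMM replicates 1 to 5. Every DMM library lay below every PBS library, although PBS replicate 3 and DMM replicate 1 were nearly equal. The log2 fold change was -0.56 (SE 0.16, adjusted p = 0.378, edgeR) over 10 libraries, -0.71 (SE 0.16, adjusted p = 0.0340, edgeR) over 8 and -0.59 (SE 0.09, adjusted p = 0.00215, edgeR) over 7, where it was just short of the fold threshold. The libraries left out for the 8 were the lowest PBS and the highest DMM library for this gene too. Leaving out any 1 of the 8 ended the call, with adjusted p values (edgeR) of 0.0809, 0.0844, 0.0958 and 0.120 without PBS replicates 1, 2, 4 and 5 and of 0.0556, 0.0910 and 0.0642 without DMM replicates 2, 3 and 5, at log2 fold changes of -0.79 to -0.65. Of the 10 libraries, leaving out DMM replicate 1 gave a call (-0.67, adjusted p = 0.0468, edgeR). Pfkfb3, named after its values were seen, encodes an enzyme of the same family and is in the same list. It was at 69.5 to 91.0 CPM in PBS and 43.4 to 66.2 CPM in DMM libraries, which did not overlap. On the log2 scale it changed by -0.53 (SE 0.13, adjusted p = 0.378, edgeR) over 10 libraries and by -0.55 (SE 0.125, adjusted p = 0.0335, edgeR) over 8, below the fold threshold, and by -0.62 over 7, where it was called (adjusted p = 0.00191, edgeR). In the other direction, Gbe1 of the same list, also named after its values were seen, changed by 0.51 over 8 libraries (adjusted p = 0.0331, edgeR). This too was below the fold threshold, and its groups did not overlap over 8. Of the 20 genes, 14 were above 0 and 6 below over 8 libraries, against 8672 above and 7878 below among all tested genes. With the adjusted p alone, 1 was higher and 2 lower over 8, against 7.17% of all genes in either direction. Over 7 libraries 0 of the 20 were called higher and 2 lower, against 6.71% and 7.61% of all tested genes. Gapdh, of the same list, was at most 7.17 CPM, and its reads may be shared with its many pseudogenes, so its value is uncertain.

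Among 15 tested target genes of vessels, vascular tone and blood, 0 were called higher and 1 lower over the 8 libraries (2.73% and 3.56% of all tested genes), with a median log2 fold change of -0.21. This was Cxcr4, a chemokine receptor found on leukocytes and endothelial cells. It was at 18.7, 22.1, 13.5, 27.0 and 23.1 CPM in the PBS libraries and at 13.3, 14.9, 7.65, 6.71 and 10.5 CPM in the DMM libraries. PBS replicate 3 was the lowest PBS library and fell among the DMM values. The log2 fold change was -0.98 (SE 0.25, adjusted p = 0.378, edgeR) over 10 libraries and -1.20 (SE 0.26, adjusted p = 0.0262, edgeR) over 8. Leaving out any of PBS replicates 1, 2, 4 and 5 or DMM replicates 3 and 5 from the 8 ended the call, with adjusted p values of 0.0505, 0.0720, 0.0902, 0.0855, 0.0836 and 0.0737 in that order (edgeR) and log2 fold changes between -1.28 and -1.09. It was called without DMM replicate 2 (-1.46) and without DMM replicate 4 (-1.05). Sums of leukocyte markers were also lowest in DMM libraries. The summed level of 6 T cell markers, with Cd4 the most abundant, was 42.4, 45.4, 42.2, 36.0 and 63.8 CPM in PBS replicates 1 to 5 and 39.7, 32.1, 13.4, 17.8 and 18.6 CPM in DMM replicates 1 to 5. The sum of 8 macrophage markers, with C1qb the most abundant, was between 1231 and 1671 CPM in PBS and between 732 and 1338 CPM in DMM libraries, and 2 of the 8 were called lower over the 8 libraries, as was 1 of the 6 T cell markers, Cd4. Without DMM replicate 4, over 7 libraries, 5 of 8 macrophage and 3 of 6 T cell markers were called lower. DESeq2 called 5 macrophage and 3 T cell markers lower over the 8 libraries, where it called 911 of all genes lower. Over all 10 libraries 0 of either list were called. The part of leukocyte content in the Cxcr4 difference was not tested.

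In the remaining 4 lists edgeR called 0 genes over 10 or over 8 libraries, while DESeq2 called 0 over 10 and 1 over 8, Rora (0.89, adjusted p = 0.0164, DESeq2). Among all genes DESeq2 called 50 over 10 and 1660 over 8. The 8 other subunits and coactivators had a median log2 fold change over 10 libraries of 0.09, and Hif3a, another alpha subunit gene at 1.06 to 3.87 CPM, had 0.74 (adjusted p = 0.449, edgeR), while Arnt2 had 0.22. Of the 11 genes of the VHL ligase complex and HIF turnover, with a median of 0.02, Usp33, a deubiquitinase, was at 36.7 to 38.6 CPM in PBS and 40.3 to 52.5 CPM in DMM libraries, which did not overlap (log2 fold change 0.29, adjusted p = 0.385, edgeR). Siah2, a ubiquitin ligase of the prolyl hydroxylases, had -0.25. Among 12 targets of mitochondria and cell survival, with a median of 0.16, the transcriptional repressor gene Bhlhe40 had 0.32 (adjusted p = 0.387, edgeR) and the mTORC1 inhibitor gene Ddit4 had -0.54 (adjusted p = 0.457, edgeR). The list of 18 targets of matrix, pH and chromatin had a median of -0.04. Its genes of smallest p were the nuclear receptor gene Rora, at 0.74 (adjusted p = 0.385, edgeR), with 215 CPM in DMM replicate 4 against 79.4 to 114 CPM in the other DMM libraries, and Narf, at 0.24. Without DMM replicate 4 the value of Rora was 0.43 over the other 9 libraries, and that of Ddit4 was -0.36.

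HIF binds the core letters ACGTG or GCGTG of the hypoxia response element. The RefSeq promoter windows of the members (GRCm38.p6) were therefore searched for both on either strand. Each window runs from 250 bases before to 50 bases after the annotated start. Only the 250 bases before the start were searched, in the members and in all genes, and every match and share refers to these. The 9 members that were found there have 11 windows, 9 of which held at least 1 match, against 38.6% of 32851 windows of all genes (16.6% for ACGTG and 28.2% for GCGTG). These windows were not matched to the members for base content, and the members were chosen by name with HIF targets among them. No window was found under the name Epas1, so this gene was not searched. The window of Vhl and the upstream of the Vegfa pair held no match, and that of Bnip3 held 5, more than any other member window. The Bnip3 stretch is shown because this gene was the member called over the 8 libraries, and those of Egln1, Egln3 and Adm, whose windows held 2, 1 and 2 matches, are shown for comparison. The first windows of Egln2 (4 matches) and Hif1a (3) are not shown, and the other match of Egln1, an ACGTG from 68 to 64 bases before the start, lies outside its stretch. They lie on the minus strand at chr7:138909527-138909756 (Bnip3), chr8:124949345-124949404 (Egln1) and chr12:54204065-54204124 (Egln3), and on the plus strand at chr7:110627537-110627616 (Adm). All of them are upstream of the gene and overlap no GENCODE exon. Capitals mark matches on either strand (CACGT and CACGC are the reverse complements), and the run CACGTG in Bnip3 holds ACGTG on both strands, so that 2 of its 5 matches overlap.
Bnip3: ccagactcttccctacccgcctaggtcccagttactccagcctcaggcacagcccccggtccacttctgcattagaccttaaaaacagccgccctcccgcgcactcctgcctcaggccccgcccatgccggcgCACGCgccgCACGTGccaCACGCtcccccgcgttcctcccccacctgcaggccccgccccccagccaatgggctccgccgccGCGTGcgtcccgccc
Egln1: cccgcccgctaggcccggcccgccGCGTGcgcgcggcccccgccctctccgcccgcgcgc
Egln3: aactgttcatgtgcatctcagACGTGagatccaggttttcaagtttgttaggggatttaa
Adm: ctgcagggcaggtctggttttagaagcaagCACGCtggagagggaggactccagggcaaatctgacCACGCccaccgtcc
The Bnip3 matches lie in a group of 4 between 117 and 95 bases before the start, and the remaining match is nearer the start. A match is a description of letters and says nothing of binding in these kidneys.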

How the data were processed

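RNA-seq counts of 10 UUO kidney libraries (5 PBS, 5 DMM) were analysed. The authors aligned reads to mm10 and deposited a raw count per gene and library. HISAT2 2.0.5 is named in the submitters' processing notes, while the counting tool, annotation release and strand setting are not given in the sources used here, so reads of a gene and an antisense partner cannot be told apart. FPKM values were also deposited, scaled by gene length and an effective library size, and were not used here. The group means that the authors deposited are a signal, counts after scaling by DESeq2, and were read only for the weight of each library. The log2 fold change that the authors deposited, and the p-value and adjusted p-value that the authors deposited from DESeq2, were not used. The gene length that the authors deposited, an other kind of value in base pairs, was used for RPKM.

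Genes kept by filterByExpr (16505 over 10 libraries, 16550 over 8) were scaled by TMM and tested across all genes by edgeR 4.0.16 in R 4.3.3 with its quasi-likelihood F test, without a block, and DESeq2 1.42.0 was an alternative. Standard errors were derived from each fold change with its F value. Log2 CPM used a prior count of 2. The steps were tested on simulated data. Gene positions were those of the deposited table, and exon overlaps were taken from GENCODE. Protein sequences were not used here. Pathway genes were named if called over 10 or 8 libraries, at most 4 per list, or else as the 2 of smallest p over 10. The members and lists were chosen with earlier results of these data known. A pathway gene included in the counts is not reported here by name. Alternatives were other libraries, tool, scaling, filter, fold threshold, replicate block and each library left out. Reads were not corrected for duplicate molecules, and columns left unmapped number 0.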

Additional observations from a re-analysis of the deposited data

Results flagged for a closer look

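Across 33 measures in the PBS and DMM groups, 66 groups of 5 libraries were searched for a library whose gap to its nearest neighbour took up most of the group's range, and 11 were found. The cut-off was a gap of more than 0.71 of the range, a level set for about 1 in 20 groups of independent, normally distributed values. The measures come from the same libraries, so this rate is only a guide. Most belonged to DMM replicate 4, which had 6 of the 11. In that library Hif1a was at 447.5 CPM, against 147 to 174 CPM in the other DMM libraries. Arnt was at 113.4 CPM there and Egln3 at 56.96 CPM. The target genes Rora, at 214.6 CPM, and Narf, at 63.49 CPM, were also highest in it. The log2 difference between long and short genes was 1.057 in the same library.

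PBS replicate 3 was apart from the other PBS libraries in the summed level of proximal tubule markers, at 4573 CPM, and of collecting duct markers, at 291.1 CPM. Its mitochondrial share of counts was 3.66%, against 1.97 to 2.30% in the other PBS libraries. Its difference between long and short genes was -0.038, a small value in a group with a narrow range. DMM replicate 1 had a summed level of interferon response genes of 2809 CPM, against 292 to 383 CPM in the other DMM libraries. The part of these differences between libraries in the members' values was not tested, beyond the values given without those libraries.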

How the results depend on the processing

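Over all 10 libraries, the counts of called genes (0 of all genes, 0 members, 0 pathway genes) were also 0 in the fits with RLE scaling, with unscaled library sizes, with either other filter, without the fold threshold and with the replicate block. DESeq2 called 50 genes in all over the 10 libraries, and 0 members and 0 pathway genes. Over the 8 libraries the counts were 1042, 1 and 2, and they were 1660, 1 and 4 (2 higher and 2 lower) with DESeq2, 976, 1 and 4 with library size alone, and 1187, 1 and 6 with no fold threshold. The split of 452 higher and 590 lower genes over 8 libraries became 276 and 700 with library size alone, which moved the median log2 fold change of all genes from 0.02 to -0.09. When each library was left out in turn, all genes called ranged from 0 to 486 over 10 libraries, the most without DMM replicate 1, and from 407 to 2410 over 8, the most without DMM replicate 4. Members called stayed at 0 over 10 and ranged from 0 to 1 over 8, and pathway genes called ranged from 0 to 2 and from 0 to 9.

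The log2 fold changes of the members were refitted under 19 alternatives to the fit over 10 libraries. Of 190 values, 168 kept their direction and their side of the threshold, 3 of Bnip3 came to be called (each over the 8 libraries), and 19 turned direction. Values that turned belonged to fold changes near 0 that were not called in any fit. Vegfa turned to 0.047 over the 8 libraries, 0.048 with DESeq2 on them, 0 with RLE size factors and 0.001 with the stricter filter. Library size alone gave -0.011 for Egln1 and -0.094 for Egln3, and -0.001 for Adm over the 8 libraries, where Vegfa was at -0.052 and so turned from its 0.047 in the fit over 8 but not from its -0.008 over 10. Egln3 was at -0.011 with no filter. With each library left out of the 10, Arnt ranged from -0.001 to 0.190, Egln3 from -0.302 to 0.128, Vegfa from -0.083 to 0.10 and Adm from -0.017 to 0.273. Within the 8 libraries the ranges were -0.027 to 0.205 for Arnt, -0.180 to 0.010 for Egln2, -0.224 to 0.317 for Egln3, -0.047 to 0.193 for Vegfa and -0.107 to 0.296 for Adm. The cause was not tested, except that among these fits Arnt and Egln2 turned only without DMM replicate 4.

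Replicate numbers are shared by the groups, but same-numbered libraries did not deviate together (correlations of -0.06, 0.08, 0.34, 0.12 and -0.22), and a PBS library correlated best with its own number in 1 of 5 cases. With the replicate block, 0 genes, 0 members and 0 pathway genes were called, and Egln3 was at -0.009. Among the 10 members depth limits Adm most, with 77 counts in its lowest library. Some tested pathway genes had fewer, down to 5 counts in a library, and Epo could not be tested.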
